A study of Mus musculus with 6 samples.

Results

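The data described here are the baseline transcriptome of hematopoietic stem cells from Prmt5 fl/fl mice, the group in which the floxed Prmt5 gene was left intact. All 24110 gene rows of the deposited table were taken, in the 3 Prmt5 fl/fl libraries of a series of 6. From the bone marrow of C57BL/6 mice, cells that lacked lineage markers and CD48 and carried Sca-1 and CD150 were sorted 7 days after induction, and each library pooled cells of 2 mice. The other 3 libraries came from littermates with deleted Prmt5 (Prmt5 KO), and they enter only where the spread between pools of the same genes was measured again. The labels give neither the age of the animals nor the agent and Cre driver of the induction.

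Hematopoietic stem cells are rare marrow cells that renew themselves and give rise to every blood lineage. Most of them divide seldom, and they lie close to the megakaryocyte lineage, with which they share several surface proteins. Their identity rests on a network of transcription factors that includes LMO2, GATA2, MEIS1 and RUNX1. CD150 (Slamf1) and the absence of CD48 separate them from the progenitors that descend from them.

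The 3 pools held 44166334, 44704636 and 42213314 reads in genes for replicates 1, 2 and 3, and 16143, 15821 and 15948 genes had a read. A gene with 0 reads may still be present at up to 0.0679, 0.0671 and 0.0711 CPM in these libraries, the limit that 3 reads set, counting error only. Replicate 3 stood apart by gene length. Over the 11585 genes averaging 100 scaled reads or more, its median log2 difference from the mean of the other 2 pools was 0.51 in the 820 genes of up to 1000 bases and -0.76 in the 2115 genes over 5000 bases. Replicates 1 and 2 differed by 0.05 and -0.04 in the same 2 classes. The log2 values of replicates 1 and 2 correlated across genes at r = 0.983, against 0.926 and 0.937 for replicate 3 with each of them (genes are not independent replicates). Long transcripts are therefore given with all 3 values, and results on spread are given with and without replicate 3. What set this library apart was not tested.

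**Figure D1:**
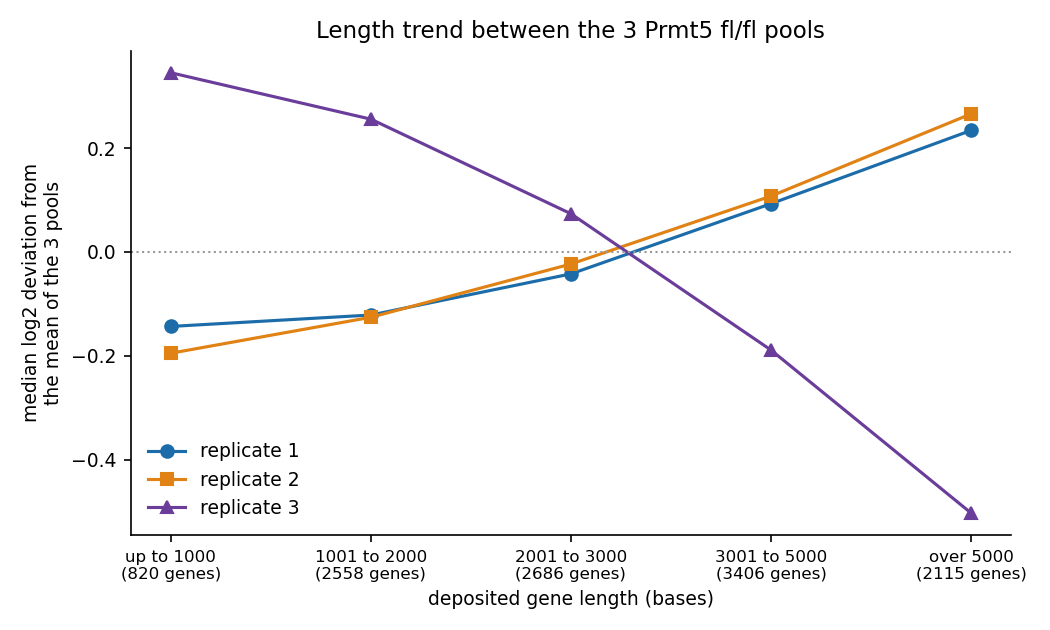
Median deviation of each pool from the mean of the 3 pools (log2 scale, y axis) for 5 classes of deposited gene length in bases (x axis), over the 11585 genes averaging 100 scaled reads or more; each line is a pool. Replicate 3 goes from 0.34 in genes of up to 1000 bases to -0.50 in genes over 5000 bases, and replicates 1 and 2 run close together.

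Levels were compared between genes as TPM, a length-normalized level, which is the value divided by the deposited gene length and scaled to the same total in each library. A gene was called expressed at 1 TPM or more in each of the 3 pools, and 11887 genes were (49.3% of the table). Of these, 1959 genes (8.13% of the table) reached 100 TPM in each pool and held 68.0% of all TPM. At the other end, 6933 genes (28.8% of the table) had 0 reads in each pool and are called silent. The remaining 5290 genes were low, with 0.242% of the TPM. Only 92 genes reached 1000 TPM in each pool, and these carried 18.2% of the TPM. Ranked by level, 817 genes made up 50% of the TPM and 1404 genes 50% of the reads. Of the rows that the GENCODE annotation types as protein-coding, 54.6% were expressed (10762 of 19696), against 11.6% of long intergenic noncoding RNAs (91 of 784) and 7.69% of microRNA genes (85 of 1105). A microRNA row counts reads over the short gene, often inside a host transcript, so it does not measure the mature RNA.

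Of the 20 genes with the most TPM, 9 encode ribosomal proteins. Ppia, which encodes cyclophilin A, led with 6444, 6144 and 7386 TPM in replicates 1, 2 and 3 (6658 ± 648, SD, n = 3). B2m, the light chain of MHC class I, followed at 4783, 5417 and 6652 TPM, and Tmsb4x, the actin-binding thymosin beta-4, at 4873, 4772 and 6001 TPM. Replicate 3 was the highest pool for all 3 of these short transcripts, as it was for 19 of the 20 genes with the most TPM. Eef1a1, the elongation factor that delivers tRNA to the ribosome, was nearly level over the pools at 4497, 4794 and 4813 TPM. The other 16 genes of the 20 were Rpl32, Rpl13, Pfn1, H2-K1, Actb, Gpx1, Rn45s, Ptma, Rps18, Rps19, Rps14, Ftl1, Rps9, Rplp0, Rpl41 and Rpl4, with means from 3906 down to 2257 TPM.

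By reads, without regard to length, the order differed, and 10 of the 20 highest genes were shared between both rankings. Rn45s, the 45S ribosomal RNA precursor, took the most reads, with 484303, 413306 and 264868 scaled reads (1.08%, 0.925% and 0.592% of each library). Replicate 1 was the highest and replicate 3 the lowest for it. Gpr56, an adhesion receptor found on stem cells, was the sixth by reads with 122019, 151128 and 94187 and reached 1519, 1917 and 1017 TPM. Serinc3, a membrane protein, had 116065, 126475 and 161857 scaled reads, highest in replicate 3. Malat1, a nuclear long noncoding RNA, had 69630.4, 83854 and 112445 scaled reads but, over its 6982 bases, only 479.6, 589 and 672 TPM. Ribosomal proteins were 9 of the 20 highest by TPM and 1 of the 20 highest by reads, and the median length was 936.5 bases among the 100 highest by TPM against 1922 among the 100 highest by reads. Among those 100 by reads, Kit, Angpt1, Gnas, Eif4g2 and Ewsr1 had the lowest places by TPM, 437 to 555. Rps28, Rps26, Rpl23a and Rplp2, all of 559 bases or fewer, were within the first 100 by TPM and at places 532 to 1323 by reads.

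**Figure D2:**
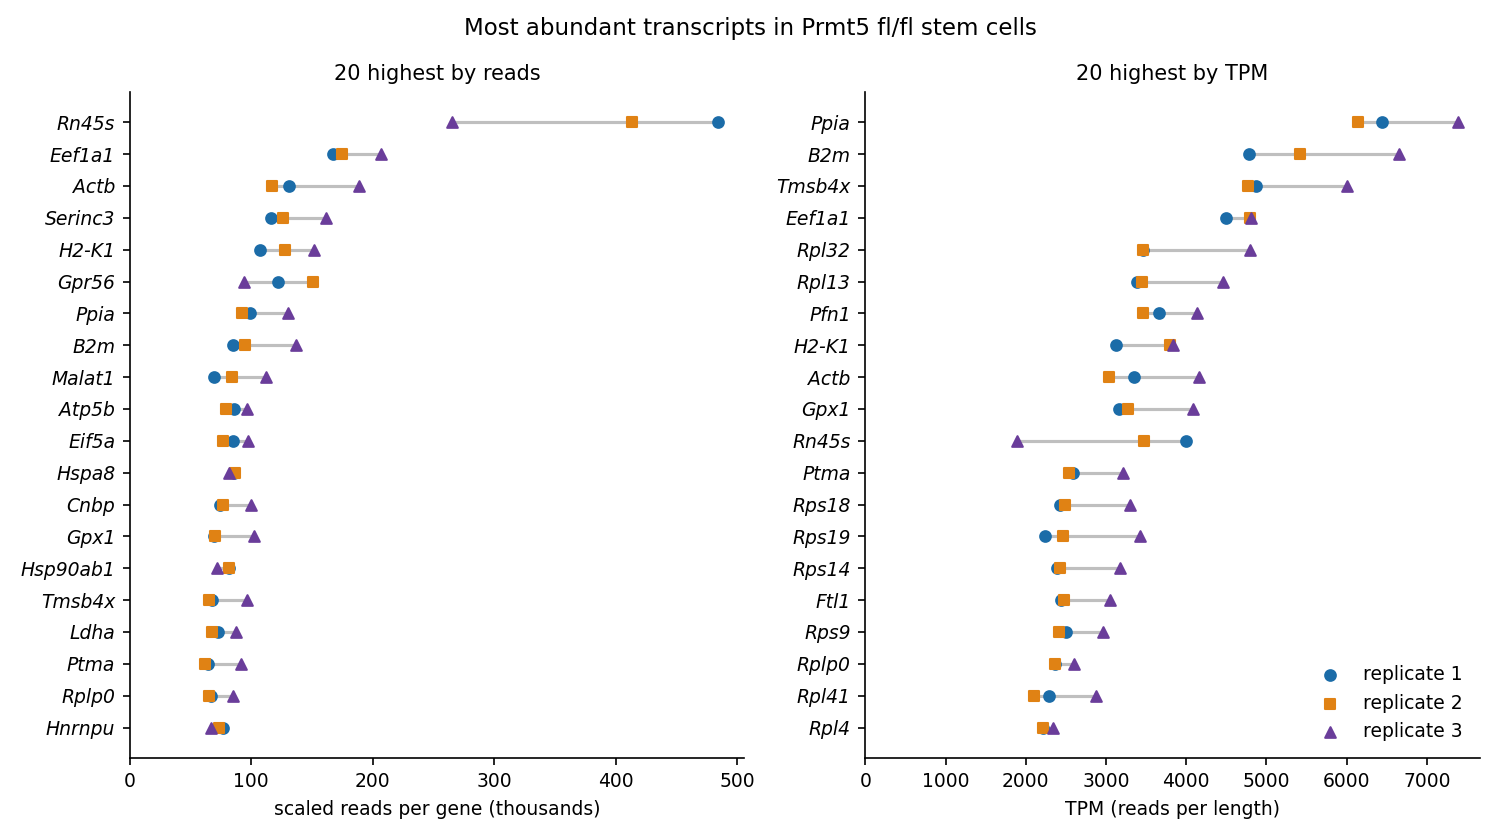
The 20 genes with the highest mean scaled reads (left) and the 20 with the highest mean TPM (right); each point is a pool and the grey line joins the lowest and highest pool. Rn45s leads by reads with its lowest value in replicate 3, and Ppia leads by TPM with 6444, 6144 and 7386 in replicates 1, 2 and 3.

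All 18 stem cell surface genes of the list used here were expressed, 7 of them at 100 TPM or more in each pool. Over all genes these shares were 49.3% and 8.13%. Cd9, a tetraspanin, had 512, 547 and 683 TPM and Ly6a, which encodes Sca-1, 238, 261 and 344 TPM. Kit, the stem cell factor receptor, had 408, 534 and 156 TPM, and its transcript of 5181 bases was lowest in replicate 3. Cd34, Esam and Cd27, all surface proteins of early hematopoietic cells, were high as well, with 192, 185 and 205, 169.7, 157 and 219 and 109.7, 135 and 163 TPM. Slamf1, the CD150 of the sort, was expressed at 57.4, 57.0 and 69.7 TPM and Procr, the endothelial protein C receptor, at 76.9, 76.0 and 92.4 TPM. The lowest members were Cd38 with 6.84, 6.64 and 8.14 TPM and Thy1 with 2.36, 2.34 and 3.06 TPM. In 3 of the 17 members averaging 100 scaled reads or more the pools lay over 2-fold apart, near the 16.1% of all genes, and in 0 of 17 (2.09% of all genes) when replicates 1 and 2 alone were compared.

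Of 13 genes of antigens that the gate leaves out 6 were expressed, near the 49.3% of all genes, and 0 reached 100 TPM in each pool, where 8.13% of all genes did. Cd48 itself had 25.7, 19.1 and 27.7 TPM, so its transcript was present in the sorted cells at a level below that of Slamf1 in each pool. Ly6c2, a myeloid antigen of the Ly6 family, had 247, 78.7 and 76.0 TPM, and Itgam, which encodes CD11b, 27.2, 13.7 and 3.74 TPM, both highest in replicate 1. The lymphoid antigens Cd3e, Cd3g, Cd5, Cd8a, Cd2 and Il7r stayed under 1 TPM in each pool.

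All 22 stem cell transcription factors of the list were expressed, and 7 of them were high, beside 49.3% and 8.13% of all genes. Lmo2, a bridging protein of the GATA and TAL1 complex, was the most abundant with 821, 891 and 975 TPM. Gata2 had 301, 373 and 217 TPM and Meis1, a HOX cofactor, 257, 330.0 and 254 TPM. Gfi1b, a transcriptional repressor that acts in the megakaryocyte and red cell lineages, had 255, 254 and 302 TPM. Myb, Fli1 and Ldb1 were the other 3 high members. Hlf, a stem cell factor of the PAR bZIP family, had 92.3, 94.9 and 58.0 TPM, Mecom 59.5, 62.4 and 31.8 TPM and Runx1 47.7, 48.2 and 29.9 TPM, each lowest in replicate 3. Hoxb5 had the lowest level of the list, 10.7, 11.2 and 12.8 TPM. Of the 22 genes, 1 differed over 2-fold between the pools, Etv6, a repressor of the ETS family, with 22719, 25770 and 10449 scaled reads. Between replicates 1 and 2 that count was 0. Over all genes averaging 100 scaled reads or more these shares were 16.1% and 2.09%, and the 0 is near the latter.

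**Figure D3:**
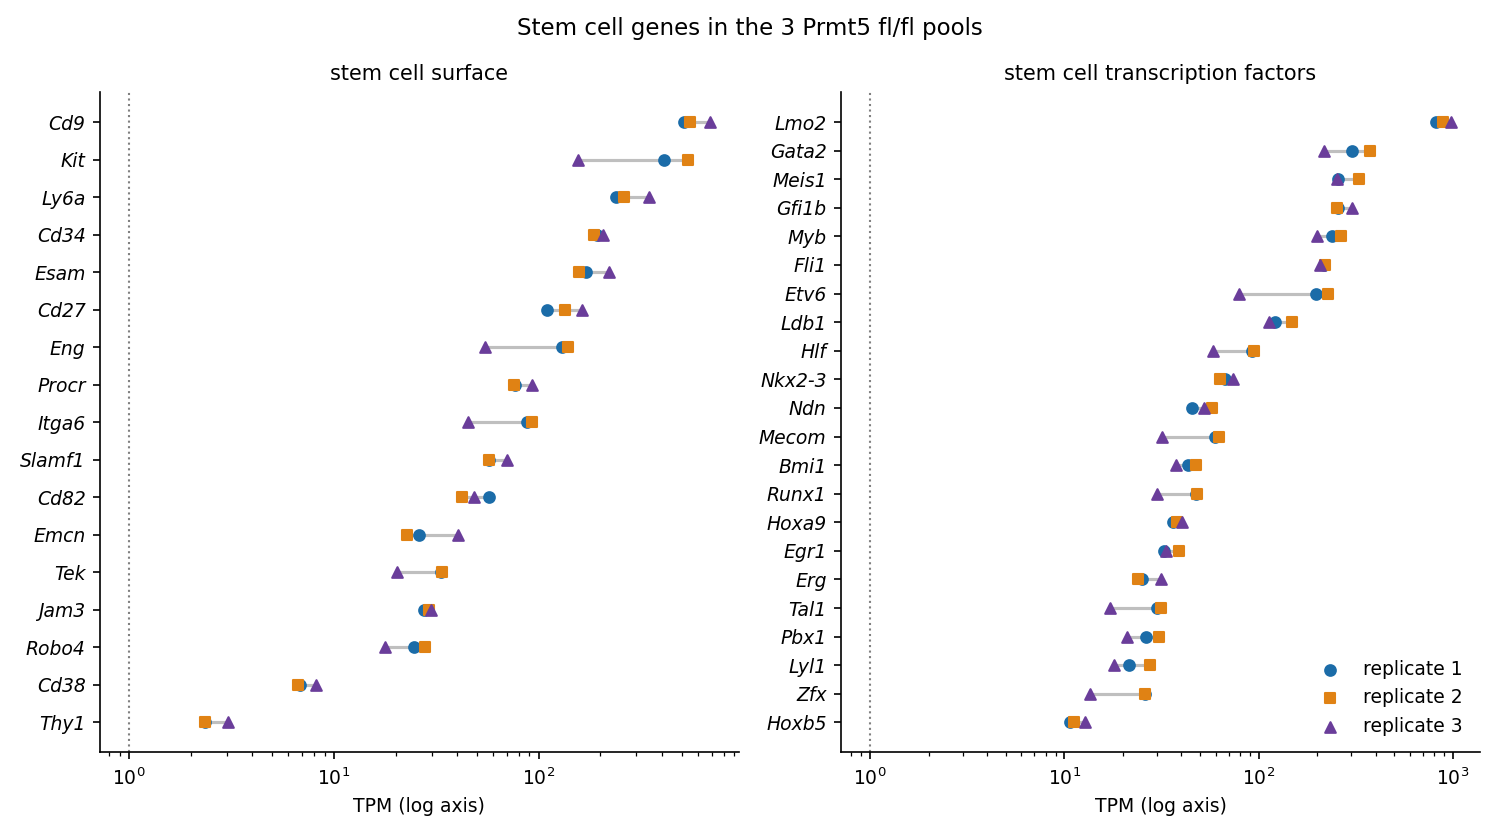
TPM (log axis) of 17 of the 18 stem cell surface genes (left) and the 22 stem cell transcription factors (right) in the 3 pools; the dotted line marks 1 TPM and the grey line joins the lowest and highest pool. Every point lies above 1 TPM, and Kit and Etv6 have their lowest value in replicate 3.

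Of 19 transcription factors of single lineages 9 were expressed, 9 low and 1 silent, a share expressed near the 49.3% of all genes. Spi1, the myeloid factor PU.1, had 150.2, 141 and 170.3 TPM and Gata1, the factor of megakaryocytes and red cells, 112, 122 and 153 TPM, so both were high in each pool. The B cell factors Ebf1 and Pax5 had at most 0.166 and 0.203 TPM, the T cell factor Bcl11b at most 0.0446 TPM, and Eomes had 0 reads in each pool. Cebpa, which drives granulocyte development, had 3.45, 1.58 and 0.268 TPM, and Cebpe, of later granulocytes, 10.3, 2.93 and 0.428 TPM.

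In the lists used here, a larger share of receptors than of ligands was expressed. Of 34 cytokine and growth factor receptors, 30 were expressed, against 12 of 25 secreted signals, beside 49.3% of all genes. Families taken by symbol did not all go this way. Of chemokine receptors 4 of 18 were expressed and of chemokines 11 of 39. Of interleukin receptors 20 of 35 were expressed and of interleukin ligands 8 of 33. Ifngr1, a chain of the interferon gamma receptor, had 117, 121 and 135 TPM and Epor, the erythropoietin receptor, 57.4, 48.3 and 67.9 TPM. Of the 4 receptors in the list of 34 that were not expressed, Il7r and Lifr were lowest, with means of 0.137 and 0.222 TPM. The ligands Thpo, Epo, Il3 and Csf2 had 0 reads in each pool, and Kitl, the ligand of KIT, had 0.0447, 0.0629 and 0.0567 TPM. By contrast Angpt1, the ligand of the TEK receptor, was high with 317, 418 and 313 TPM, and its receptor Tek had 33.4, 33.7 and 20.3 TPM. Tgfb1 had 222, 229 and 102 TPM, lowest in replicate 3. Cxcl12, a chemokine made by marrow stroma, varied most among the signals with 42.5, 195 and 502 scaled reads.

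All 26 proliferation genes were expressed and 18 were high, led by Mcm6, a subunit of the replicative helicase, with 757, 808 and 554 TPM and Pcna, the polymerase clamp, with 456, 459.6 and 486 TPM. Their pools lay over 2-fold apart in 0 of 26, beside 16.1% of all genes averaging 100 scaled reads or more. With the median deviation of each of 20 length bins taken off in every library, 1 of the 26 lay over 2-fold apart. Among all 11585 genes it was 1090. Of 15 genes listed as quiescence regulators 13 were expressed, and the 3 highest, Cdk4, Ccnd3 and Ccnd2, are a kinase and cyclins that drive passage through G1. Cdk4 had 1017, 987 and 1004 TPM, Cdk6 108, 131 and 101 TPM and Ccnd3, a D cyclin, 390.3, 357 and 314 TPM. Among CDK inhibitors Cdkn2d had 141, 148 and 210.2 TPM. Cdkn1c, which encodes p57, had 41.6, 43.2 and 45.0 TPM and Cdkn1b, which encodes p27, 7.15, 9.66 and 13.2 TPM, while Cdkn2a and Cdkn2b had at most 0.0863 and 0.176 TPM. Among 25 immediate early genes 17 were expressed, with Myc the highest at 412, 523 and 447 TPM. The counts of these lists stand beside 49.3% expressed and 8.13% high over all genes.

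The families with the most TPM were those of translation, protein turnover and respiration. Of 81 cytosolic ribosomal proteins, 77 were expressed and 73 high, and their summed level was 88962, 88481 and 110216 TPM. All 77 mitochondrial ribosomal proteins were expressed (47 high), all 16 ATP synthase subunits (15 high), 38 of 39 proteasome subunits (35 high) and 35 of 36 complex I subunits (32 high). All 20 hnRNPs, proteins that package and splice pre-mRNA, were expressed and 11 were high, and of 11 SR splicing factors 10 were expressed and 8 high. Among arginine methyltransferases and their partners 11 of 12 were expressed. Prmt1 led with 323, 311 and 267 TPM, Prmt5 itself had 111, 112 and 94.9 TPM and its cofactor Wdr77 131, 137 and 110.2 TPM, and Prmt8 had 0 reads in each pool. All 20 iron and antioxidant genes were expressed and 13 high, led by Gpx1, a glutathione peroxidase, with 3167, 3274 and 4079 TPM. These shares stand beside 49.3% expressed and 8.13% high over all genes.

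Of the Hoxa cluster 7 of 11 genes were expressed and of the Hoxb cluster 5 of 10, beside 49.3% of all genes. In each of the Hoxc and Hoxd clusters it was 0 of 9, and 3 and 8 genes were silent. Over all genes 28.8% were silent, so the Hoxc count was near that share and the Hoxd count above it. Hoxa9, a self-renewal factor, had 36.1, 38.2 and 40.3 TPM, Hoxa7 30.3, 30.6 and 34.8 TPM, Hoxa10 28.9, 30.2 and 28.9 TPM and Hoxb2 32.0, 30.0 and 32.6 TPM. The most abundant member of the other 2 clusters was Hoxc6 with 0.550, 0.770 and 0.250 TPM. All 7 STAT factors, all 3 RUNX factors and 8 of 9 IRF factors were expressed. So were 296 of 354 Zfp zinc finger genes, but only 4 of the 354 were high, beside 8.13% of all genes. Of 19 SOX factors 5 were expressed, led by Sox4 with 181, 221 and 187 TPM, and of 44 forkhead factors 13, led by Foxn3 with 115, 136 and 151 TPM. Of 9 PAX factors 0 were expressed and 5 were silent, beside 28.8% silent over all genes.

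Families known from other tissues were mostly at or near 0. Of 19 WNT ligands 0 were expressed and 10 silent, while 6 of 10 frizzled receptors, which bind them, were expressed, with Fzd6 at 17.5, 18.8 and 12.1 TPM. Of 22 fibroblast growth factors 2 were expressed, Fgf3 at 21.7, 20.6 and 20.2 TPM and Fgf11 at 4.89, 4.66 and 3.22 TPM. Over all genes 49.3% were expressed. Silent genes made up 1056 of 1103 olfactory receptors, 320 of 330 vomeronasal receptors, 52 of 55 defensins and 35 of 38 taste receptors, against 28.8% of all genes. The exceptions were low: Olfr414, the highest olfactory receptor, had 2.75, 3.39 and 3.52 TPM and Vmn2r29 2.03, 2.21 and 1.40 TPM, whereas the taste receptor gene Tas1r1 reached 13.1, 11.4 and 12.5 TPM. Of 52 keratins 37 were silent, but Krt18, an epithelial intermediate filament, was high with 136, 168 and 249 TPM. All 12 globin rows were below 1 TPM in at least 1 pool and 8 were silent, among them Hba-a1, Hba-a2, Hbb-bs and Hbb-bt. These adult globins are near-identical copies, so reads that the authors' counting could not place in a single gene may be missing, and their 0 is uncertain. The same holds for replication-dependent histones, of which 52 of 68 were expressed.

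**Figure D4:**
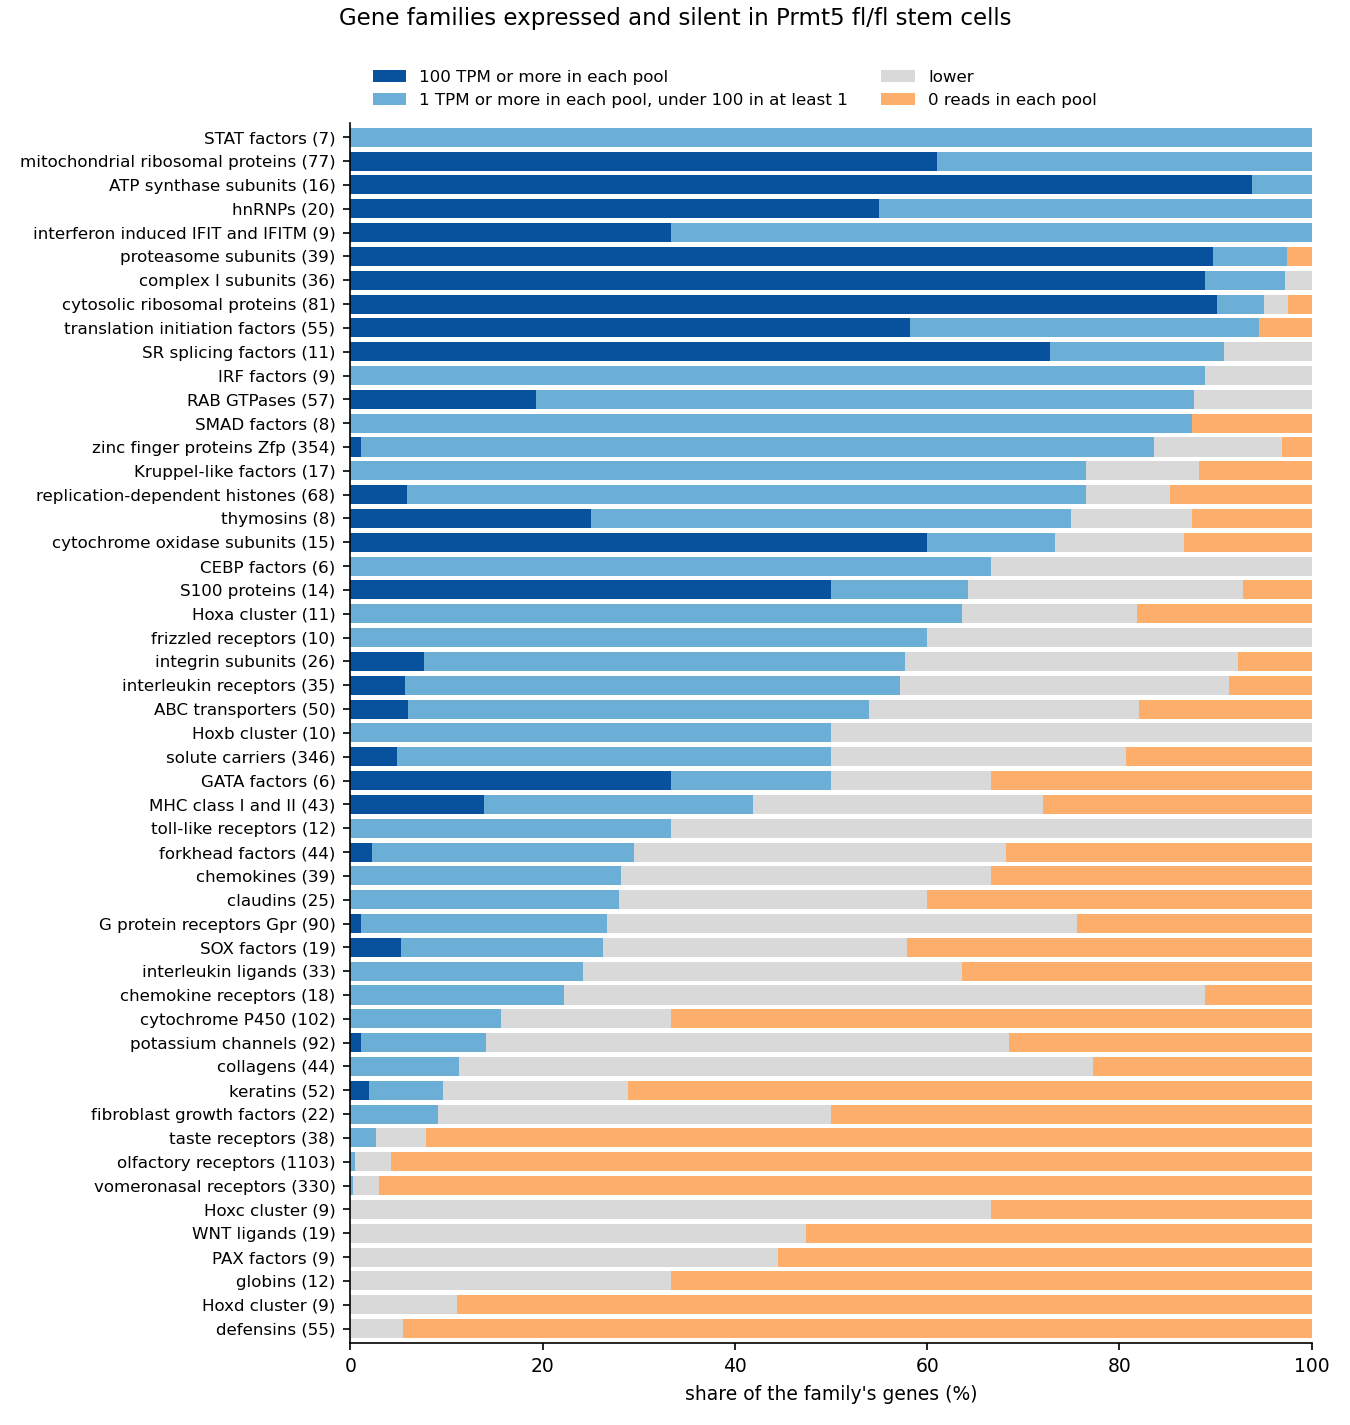
Share of the genes (%) of each family with 6 or more genes in the table, the number of genes in parentheses, at 100 TPM or more in each pool, at 1 TPM or more in each pool, lower, and at 0 reads in each pool. All genes of the ATP synthase, STAT and hnRNP families are expressed, and olfactory receptors and defensins are almost all at 0 reads.

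Markers of other blood cells were present beside the stem cell genes, and their levels differed between the pools. In bulk RNA, fewer cells of a type and less RNA per cell cannot be told apart. Megakaryocyte and platelet genes were expressed in 15 of 16 cases, with summed levels of 2849, 3594 and 4121 TPM, led by Pf4, platelet factor 4, with 1469, 1853 and 2659 TPM. Of 15 neutrophil genes 14 were expressed, with sums of 15261, 5678 and 1337 TPM. The 16 genes of mast cells, basophils and eosinophils summed to 617, 51.1 and 18.5 TPM, 5 of them expressed and the mast cell genes Cma1, Mcpt4, Tpsab1 and Tpsb2 at 0 reads in each pool. Monocyte genes summed to 2431, 1534 and 1342 TPM, most of it from Lyz2, lysozyme, with 2097, 1384 and 1196 TPM. Of 15 genes of red cell precursors 9 were expressed, with sums of 2174, 1841 and 2339 TPM, of which Car2, a carbonic anhydrase, gave 1711, 1639 and 2137. Of 12 B cell genes 2 were expressed, of 15 T and NK cell genes 4, of 12 liver genes 2 and of 12 muscle genes 0. The expressed counts of all these lists stand beside 49.3% of all genes. Nkg7, a granule protein of cytotoxic cells, was the highest of the T and NK list with 263, 280.1 and 360.2 TPM, whereas Cd3e, a defining T cell gene, had 0.475, 0.102 and 0.0923 TPM.

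Spread between the pools was measured on the scaled reads of the 11585 genes averaging 100 or more. The highest pool was over 2-fold above the lowest in 1867 genes (16.1%), and replicate 3 was the lowest pool in 1560 of them. Between replicates 1 and 2 alone, 242 genes (2.09%) lay over 2-fold apart, 204 of them higher in replicate 1. When the median deviation of each of 20 length bins was taken off in every library, 1090 genes lay over 2-fold apart, 830 of them among the 1867. By length, the share was 6.22% in genes over 2000 and up to 3000 bases and 42.0% in genes over 5000 bases. The median SD of log2(value + 1) was 0.263 over the 3 pools, 0.184 after the length bins were centred and 0.085 between replicates 1 and 2. These genes were chosen by their spread, so the values below describe them and carry no test.

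The 4 genes with the largest spread encode granule proteins of eosinophils and basophils. Epx, eosinophil peroxidase, had 1328, 2 and 1.06 scaled reads in replicates 1, 2 and 3, the latter 2 values resting on 2 and 1 reads. Prss34, a basophil serine protease, had 7122, 364 and 21.2 and Mcpt8, another basophil protease, 2225, 101 and 8.47 scaled reads. Prg2, the eosinophil major basic protein, had 1830.0, 57 and 29.7. For these 4 genes replicate 1 was far above both other pools. Further down the 20 with the largest spread were 3 neutrophil genes with more reads. Ltf, lactoferrin, had 35634, 15367 and 1303 scaled reads, Ngp, neutrophilic granule protein, 50434, 20369 and 1940.1 and Camp, the cathelicidin peptide, 14649, 5727 and 663. Here replicates 1 and 2 were both above replicate 3, with replicate 1 over replicate 2 by 2.32-fold for Ltf, 2.48-fold for Ngp and 2.56-fold for Camp.

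Other genes of the 20 with the largest spread were Cd177, Itgb2l, Trem1, Adam8, Mmp9, Fpr1 and C3, most of them neutrophil surface or protease genes, whose highest over lowest value ran from 20.5 for C3 to 35.9 for Itgb2l. Igj, the joining chain of secreted antibodies, had 1313, 189 and 24.4 scaled reads. Ermap and Add2, red cell membrane genes, had 1596, 104 and 47.7 and 707, 47 and 34.9, and Pklr, the pyruvate kinase of liver and red cells, had 319, 7 and 29.7. The row of Pklr shares exon bases with Hcn3, and without strand information their reads cannot be told apart where they overlap. Atp1b2 and Sphk1, a sodium pump subunit and a sphingosine kinase, completed the 20, with 499, 70 and 9.53 and 339, 15 and 49.8. All 20 were highest in replicate 1, and 18 of the 20 were lowest in replicate 3. All 20 were also within the 100 most variable genes after the length bins were centred.

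**Figure D5:**
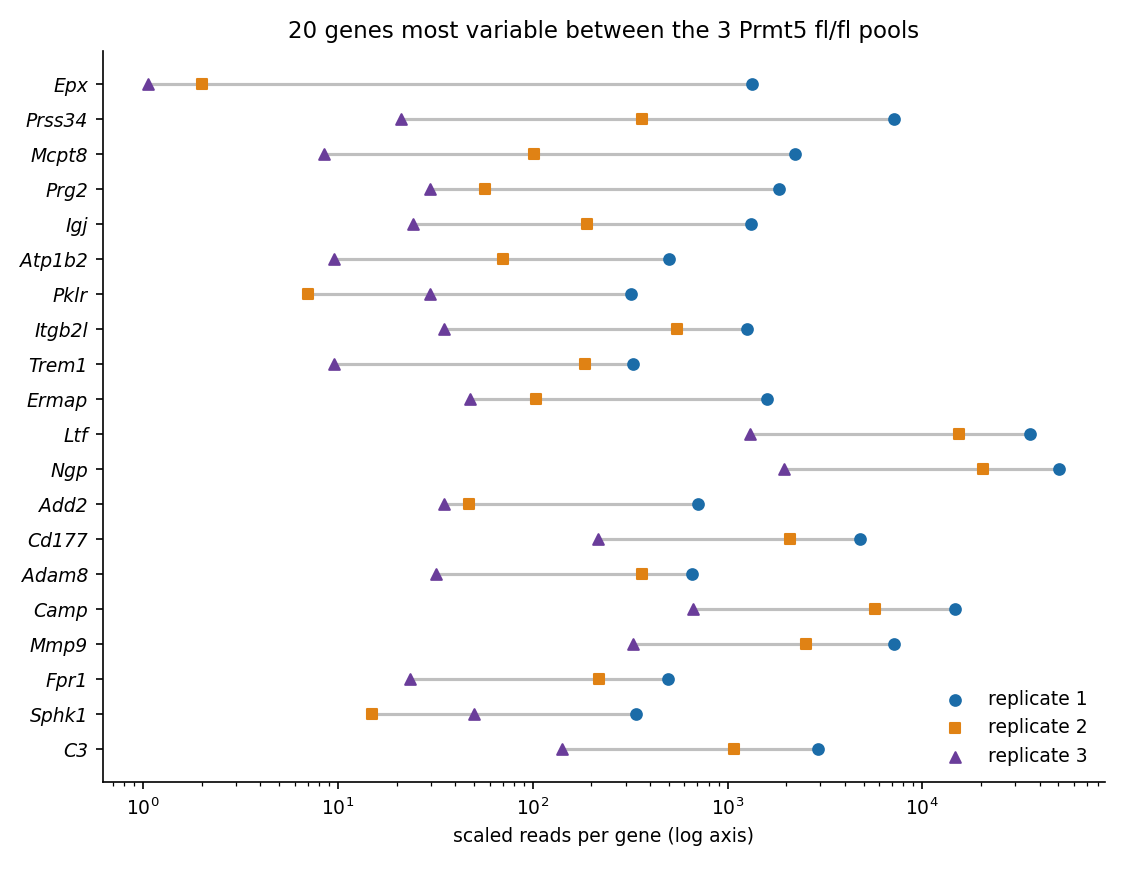
Scaled reads (log axis) of the 20 genes with the largest SD of log2(value + 1) between the pools; each point is a pool and the grey line joins the lowest and highest. Replicate 1 is the highest pool for all 20 genes, and replicate 3 the lowest for 18.

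Lists of other blood cells differed in how far their genes varied. In the neutrophil list 13 of the 15 measured genes lay over 2-fold apart, beside 16.1% of all genes, and 13 of 15 did so between replicates 1 and 2 alone, beside 2.09%. S100a8 and S100a9, the subunits of calprotectin, had 3910.4, 1503 and 223 and 3553, 1389 and 197 TPM. Mpo, myeloperoxidase, and Elane, neutrophil elastase, had 1012, 163 and 137 and 764, 129.8 and 106 TPM, with replicate 1 above both others. The other 2 members were Csf3r and Prtn3, a granule protease like elastase, with 45.7, 43.9 and 24.4 and 468, 261 and 409.7 TPM, and for Prtn3 replicate 2 was the lowest. Of the mast cell, basophil and eosinophil list, 9 of 16 genes reached a mean of 100, and all 9 lay over 2-fold apart. Genes whose reads came mainly from replicate 1 had to be apart to reach that mean, so this count is no support. In the red cell list it was 7 of 11, with all 3 pools and without replicate 3, among them Car1 with 155, 21.7 and 20.6 TPM and Slc4a1, the anion exchanger of red cells, with 14.7, 2.35 and 0.796 TPM. Of 15 megakaryocyte and platelet genes 5 lay over 2-fold apart with all 3 pools and 0 without replicate 3. The counts with all 3 pools were 6 of 9 for monocytes and macrophages, 3 of 6 for dendritic cells, 0 of 4 for T and NK cells and 0 of 1 for B cells. Whether differing numbers of other cells in the sorted pools contributed was not tested.

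Several long genes were apart in replicate 3. Col4a1 and Col4a2, the chains of basement membrane collagen, had 6138, 5808 and 1435 and 5475, 5097 and 1254 scaled reads, and Notch2, a receptor with a transcript of 10506 bases, had 4469.8, 4573 and 1367. Dnmt1, the maintenance DNA methyltransferase, had 27486, 28025 and 10938, and Vwf, von Willebrand factor, 17095, 14080 and 5781. In each of these 5 genes replicates 1 and 2 were close and replicate 3 was the lowest. For the list of DNA methylation and Polycomb genes 4 of 21 lay over 2-fold apart with replicate 3 and 0 without it, beside 16.1% and 2.09% of all genes.

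At the steady end, the 10 genes with the smallest ratio of SD to mean among those with a mean of at least 1000 were Golt1b, Rpn2, Rab22a, Crnkl1, Prmt5, Rab1b, Ltv1, Mfn1, Grwd1 and Slc43a3. Golt1b, Rpn2, Rab22a and Rab1b act in the secretory pathway and membrane traffic. Golt1b had 1747, 1738 and 1740.0 scaled reads and Rpn2, a subunit of the oligosaccharyltransferase, 24423, 24526 and 24671. Prmt5, the gene that the study deletes in its other group, had 6076, 6024 and 6009.9 scaled reads in these pools (0.578% SD over mean, where counting alone gives 1.29%). Its row is 2641 bases long. In genes over 2000 and up to 3000 bases replicate 3 differed least from the other pools, by a median log2 of 0.107. In TPM Prmt5 had 111, 112 and 94.9, so its small spread depended on the scale. For all 10 the variance was below that of counting. Among 7244 genes with a mean of 1000 to 10000, 94 (1.30%) were, and in the others it was at or above that of counting.

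The same spread was measured in the 3 Prmt5 KO pools, samples that the choice of genes did not use. They are not independent of the fl/fl pools, because they came from littermates and the titles give each KO pool the date of the fl/fl pool with its number. The 100 most variable genes of the Prmt5 fl/fl pools had a median SD of log2(value + 1) of 1.86 there, against 0.146 over all 11585 genes. The KO pools lay over 2-fold apart in 79 of these 100 genes, and in 5.50% of all 11585. With the 100 genes chosen again without replicate 1 the count was 40, and with a minimum mean of 1000 it was 25. With the genes as first chosen, the count was 20 of 20 among the 20 most variable. Among the 10 steadiest it was 0 of 10, near the 5.50% of all genes. The median SD of these 10 was 0.00838 in the fl/fl pools and 0.110 in the KO pools, where that of all genes was 0.146. In the neutrophil list 14 of 15 genes lay over 2-fold apart between the KO pools. In the stem cell surface and transcription factor lists 0 of 17 and 0 of 22 did, near the 5.50% of all genes.

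The DNA before the start sites was described by class of level. RefSeq promoters (GRCm38.p6) were matched for 16408 of 20480 genes of the table that RefSeq types as protein-coding, and the 250 bases before the start were searched for the dinucleotide CG, the site of DNA methylation in mammals. The median was 0.80 CG per 100 bases in silent genes, 6.40 in genes expressed below the high class and 6.40 in high genes. No CG was found in 21.6% of silent promoters, 0.875% of the expressed and 0.503% of the high ones, against 6.72% of all 16408. The motif TATAAA on the sense strand was in 18.3% of silent, 3.37% of expressed and 5.09% of high promoters, against 8.23% of all. Base composition differed as well, with a median G+C of 44.4% in silent, 60% in expressed and 59.2% in high promoters. Of 928 olfactory receptor promoters, with a median G+C of 33.6%, 211 held the motif and 414 held no CG. Olfactory receptors were mostly silent, and 879 of all 4066 silent promoters held no CG. The silent class without this family was not described. Whether the motif was more frequent than base composition gives was not tested. Olfactory receptors had a median of 0.40 and proliferation genes of 7.40 CG per 100 bases. Low genes are not described because only 75.5% of them had a promoter entry. These are descriptions of sequence windows, and no site was tested for methylation or binding.

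The most variable genes were taken at a mean of at least 100 scaled reads and the steadiest at a mean of at least 1000. Of the 100 most variable, 13 were on the neutrophil list, whose promoters had a median of 1.20 CG per 100 bases. The 100 most variable genes had a median of 1.20 CG per 100 bases and the 100 steadiest 7.60, with 82 and 83 of them matched. To show this contrast, 150 bases before the start are printed for the 3 most variable and the 3 steadiest genes that had such a stretch free of annotated exons, 5′ to 3′ on the gene's strand, with each CG in capitals. In the 250 bases the first 3 had 5, 3 and 0 CG and the others 23, 13 and 23.
Epx (chr11:87875537-87875686, - strand): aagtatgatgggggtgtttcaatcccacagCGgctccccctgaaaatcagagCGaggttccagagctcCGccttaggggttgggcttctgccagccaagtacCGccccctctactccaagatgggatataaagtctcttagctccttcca
Prss34 (chr17:25298244-25298393, + strand): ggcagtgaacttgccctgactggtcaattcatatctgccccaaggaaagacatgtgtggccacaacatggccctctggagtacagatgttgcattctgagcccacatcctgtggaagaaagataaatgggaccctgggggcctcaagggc
Mcpt8 (chr14:56085274-56085423, - strand): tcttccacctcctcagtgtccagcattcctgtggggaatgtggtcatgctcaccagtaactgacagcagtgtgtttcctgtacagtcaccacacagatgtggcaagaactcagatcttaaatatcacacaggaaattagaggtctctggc
Rpn2 (chr2:157278867-157279016, + strand): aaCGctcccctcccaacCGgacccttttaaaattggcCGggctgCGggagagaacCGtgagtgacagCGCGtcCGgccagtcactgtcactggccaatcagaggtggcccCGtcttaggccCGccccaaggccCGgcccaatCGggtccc
Prmt5 (chr14:54517526-54517675, - strand): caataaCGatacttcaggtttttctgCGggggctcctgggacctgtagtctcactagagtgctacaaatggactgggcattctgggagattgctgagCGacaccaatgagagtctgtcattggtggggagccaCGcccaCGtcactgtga
Rab1b (chr19:5107073-5107222, - strand): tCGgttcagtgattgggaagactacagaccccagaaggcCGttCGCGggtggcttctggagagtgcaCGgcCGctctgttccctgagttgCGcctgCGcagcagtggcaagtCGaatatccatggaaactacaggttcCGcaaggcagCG
The stretches end 1, 1, 77, 82, 56 and 77 bases before the RefSeq start in the order given.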

How the data were processed

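Per the labels' protocols, sorted-cell RNA was extracted with Trizol, cDNA was amplified with SMART-Seq v4, and Nextera XT libraries were made from it, neither kit marking strand. Per the submitters' processing notes, STAR and featureCounts were used on mm10, with versions and annotation not given in the sources used here. For Prmt5 fl/fl replicate 2 the authors deposited read counts per gene. For every other library they deposited a signal, each count times 44704636 over the library's own total. Undoing this in the Prmt5 fl/fl libraries gave whole reads for 100% of their values within a tolerance of 1e-06. Titles matched every column to a sample, and 0 were left over.

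TPM was computed from the deposited value and gene length. Spread was the SD of log2(value + 1) and the highest over the lowest value, among genes with a mean of at least 100. With 3 samples of 1 group there was no test. Depth was similar between the pools, and in most genes with a mean of at least 100 the variance between pools was above that of counting. Each library is a pool of mice, so the spread is between pools of animals. The named genes were the 20 highest by reads and by TPM, the 20 most variable (clone-like symbols left out), the 10 steadiest with a mean of at least 1000, the leading, silent and most variable members of each list and up to 3 per family, Prmt5 and the genes of the sort, and those whose 2 ranks differed most. Other list members were named after their values were seen, and the members and lists were chosen with earlier results of these data known. Gene types and exon overlaps were taken, by symbol, from GENCODE M21 of GRCm38/mm10 (22858 symbols, 94.8%, matched a single gene). RefSeq promoters were matched by current or older symbol for 74.3% of all rows, under the minimum of 80% set for such a check, so they were restricted to protein-coding genes (80.1%), a choice made after seeing the match. Protein lengths were not analysed here, and some genes that the rules would name are not reported here. Python 3.11.15, pandas and matplotlib were used, and the scripts were tested on simulated data. The alternatives were other TPM minimums, length corrections, scalings, pseudocounts, minimums on the mean and each replicate left out.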

Additional observations from a re-analysis of the deposited data

How the results depend on the processing

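No paired analysis was possible because 1 group was described and no result came from a test. Of 70 summary values recomputed, 58 stayed within 1.5 times the reported one. Expressed genes numbered 9647 at a minimum of 5 TPM and 12657 at 0.5 TPM. The spread depended on the minimum mean and on replicate 3. With a mean of at least 10, 3378 genes lay over 2-fold apart and 4 of the 20 most variable were shared; with at least 1000 it was 957 genes, 7 shared, and 25 of the 100 most variable over 2-fold apart between KO pools. With length bins centred, an alternative chosen after seeing the data, 1090 genes (9.41%) lay over 2-fold apart. Leaving out 1 replicate gave 242 to 1523 genes over 2-fold apart (2.09% to 13.1%), 10 to 18 of the 20 most variable shared, and 40 to 83 of the 100 most variable over 2-fold apart between KO pools. The low ends of the first 3 came without replicate 3, and that of the KO count without replicate 1. Of the 20 genes with the most TPM, 17 to 20 were shared under every length or replicate alternative run. A minimum of 5 TPM moved the expressed count of 28 of 83 lists and families by over 1.5 times, and leaving out replicate 3 moved 1, that of mast cells, basophils and eosinophils, from 5 to 8. Fewer than 10 reads in a pool cannot separate a low gene from a silent one.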

Other observations

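Transcripts of both sex chromosomes were present in each pool. The Y-linked genes Eif2s3y and Ddx3y had 65.5, 59.1 and 51.1 TPM and 25.6, 20.1 and 12.9 TPM in replicates 1, 2 and 3. Xist, the noncoding RNA of the inactive X chromosome, had 9.69, 11.4 and 7.26 TPM in the same pools. Of 21 imprinted genes 10 were expressed, near the 49.3% of all genes, led by Gnas with 330.1, 343 and 274 TPM. Grb10, an imprinted growth inhibitor, had 105.0, 96.3 and 27.1 TPM, lowest in replicate 3, and H19 had 0.41, 0.731 and 0.389 TPM. Of 13 dendritic cell genes 6 were expressed, near the 49.3% of all genes, and 7 were low. Of 12 B cell genes 2 were expressed. Of the antigen presentation genes of class II on the dendritic list, H2-Ab1 had 57.4, 124 and 93.4 TPM and Cd74 50.2, 69.5 and 61.7 TPM.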
